A study of Rattus norvegicus with 9 samples.

Results

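Motor neurons of the spinal cord were followed through 10 genes, which are Chat, Slc18a3, Slc5a7 and Ache of acetylcholine handling, the transcription factors Isl1 and Mnx1, and Prph, Nefl, Nefm and Nefh of the axonal intermediate filaments. They were taken from the deposited expression table by gene name, and each of the 10 names matched 1 of its 34890 loci. The table gives TPM, the share of a library's transcripts that a gene takes after correction for its length, scaled to the same total in every sample. RNA had been sequenced from L3-L6 spinal cord tissue, taken per the study's methods from the ipsilateral side, of wild-type male Sprague Dawley rats in 3 groups of 3. The sham-operated (JA) group had the sciatic branches exposed without ligation and received normal saline by mouth, and the spared nerve injury (SNI) group had the common peroneal and tibial nerves ligated and cut with the sural nerve left intact and received the same saline. The paeoniflorin-liquiritin combination (PLM) group had that injury and received paeoniflorin at 20.65 mg/mL with liquiritin, which the labels give as 3.98, 3.99 and 3.100 mg/mL for replicates 1, 2 and 3. The study's methods describe a single liquiritin dose for the whole group, so the labels are no evidence that the replicates were dosed differently. The labels call the 3 samples of a group biological replicates and give no age.

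Spinal motor neurons lie in the ventral horn and send their axons through the ventral roots and peripheral nerves to muscle. They make acetylcholine with choline acetyltransferase, load it into vesicles, and take choline back up after the transmitter has been split in the synaptic cleft. Their large, fast axons are filled with neurofilaments, which are built from a light, a medium and a heavy chain, and peripherin joins them in neurons whose axons leave the central nervous system. The spared nerve injury model cuts the axons of some lumbar motor neurons as well as those of sensory neurons, and RNA of this tissue mixes these few cells with many interneurons and glia. In such tissue, fewer cells of a type and less RNA per cell cannot be told apart.

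The start regions of the 3 genes that supply acetylcholine and of Prph are shown because these 4 genes differed among the samples together, as described below. Each sequence runs from 250 bases before to 50 bases after the gene's start in the RefSeq annotation of build GRCr8, read along the strand of the gene. Capitals mark matches, on either strand, to TAAT, the core bound by homeodomain factors such as Isl1 and Mnx1, to TATAAA, which the general factor TBP binds in many core promoters, and to GGGCGG, the box that Sp1 binds. A match to the opposite strand appears as the reverse complement of these letters, and no motif contains another.
Chat, chr16:7723367-7723666, minus strand: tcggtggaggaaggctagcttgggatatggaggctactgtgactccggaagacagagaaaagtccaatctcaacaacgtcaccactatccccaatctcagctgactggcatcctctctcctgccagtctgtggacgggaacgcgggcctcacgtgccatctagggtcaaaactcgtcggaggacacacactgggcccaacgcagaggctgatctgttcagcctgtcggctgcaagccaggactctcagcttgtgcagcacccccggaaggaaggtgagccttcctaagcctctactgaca
Slc18a3, chr16:7722765-7723064, minus strand: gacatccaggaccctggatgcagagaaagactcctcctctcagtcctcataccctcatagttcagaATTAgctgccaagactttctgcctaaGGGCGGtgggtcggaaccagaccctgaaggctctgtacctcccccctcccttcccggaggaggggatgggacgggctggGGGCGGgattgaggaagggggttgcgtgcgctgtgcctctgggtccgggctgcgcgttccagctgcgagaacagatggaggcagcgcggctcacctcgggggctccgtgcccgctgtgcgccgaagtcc
Slc5a7, chr9:7953460-7953759, minus strand: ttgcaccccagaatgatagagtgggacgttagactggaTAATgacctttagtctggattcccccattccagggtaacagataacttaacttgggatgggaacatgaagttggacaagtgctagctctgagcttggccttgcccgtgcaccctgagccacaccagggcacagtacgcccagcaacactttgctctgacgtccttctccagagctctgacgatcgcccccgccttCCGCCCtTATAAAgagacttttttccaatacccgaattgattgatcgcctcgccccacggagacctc
Prph, chr7:132097039-132097338, plus strand: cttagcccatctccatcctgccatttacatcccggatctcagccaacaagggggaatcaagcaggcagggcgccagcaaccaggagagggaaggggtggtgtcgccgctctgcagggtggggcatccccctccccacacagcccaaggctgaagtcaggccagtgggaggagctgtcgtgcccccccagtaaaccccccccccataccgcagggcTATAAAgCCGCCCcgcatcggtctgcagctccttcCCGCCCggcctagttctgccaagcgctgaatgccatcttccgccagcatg

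The start region of Chat held none of these letters, and that of Slc18a3 held 1 TAAT and 2 Sp1 boxes. Slc5a7 had 1 match to each motif, and Prph had 1 match to TATAAA and 2 Sp1 boxes. Among the other members with an entry, Ache had 4 Sp1 boxes (overlapping in part), Isl1 had 1 TAAT, and Mnx1 had 2 TAAT and 1 match to TATAAA. Of all 33469 start regions of this length in the table, 60.6% held TAAT, 14.2% held TATAAA and 33.1% held GGGCGG. A match in these letters is a description of the sequence and not a measured site. Slc18a3 lies within the span of Chat in that annotation, an arrangement known as the cholinergic gene locus, and the table has no protein-coding gene between its neighbours Nefl and Nefm. Reads of overlapping transcripts at the Chat and Slc18a3 locus could be assigned to either gene.

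Before the groups are compared, 2 of the 9 libraries have to be described apart. In JA replicates 2 and 3, 8 of the 10 members, namely Chat, Slc18a3, Slc5a7, Mnx1, Prph, Nefl, Nefm and Nefh, lay below every one of the other 7 samples, JA replicate 1 included. This held for 7.11% of 15503 loci that averaged 1 TPM or more as deposited, and for 5.89% after each sample was centred on the median of its loci, in which the same 8 members remained. Both libraries belong to the sham group, so no injury or drug separates them from JA replicate 1. The choice of these 2 samples came from the values of the members and carries no test. The fold changes against the JA group are therefore given with and without them. The 13 mitochondrial protein genes took 32.8% and 29.3% of TPM in JA replicates 2 and 3, against 25.3% in JA replicate 1, 23.7% to 26.1% in the SNI group and 31.3% to 32.8% in the PLM group. Median log2(TPM + 1) of the libraries ran from 3.18 to 3.53, lowest in PLM replicate 1 and highest in SNI replicate 1. The number of reads behind the values is unknown, because TPM keeps no trace of it.

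**Figure D1:**
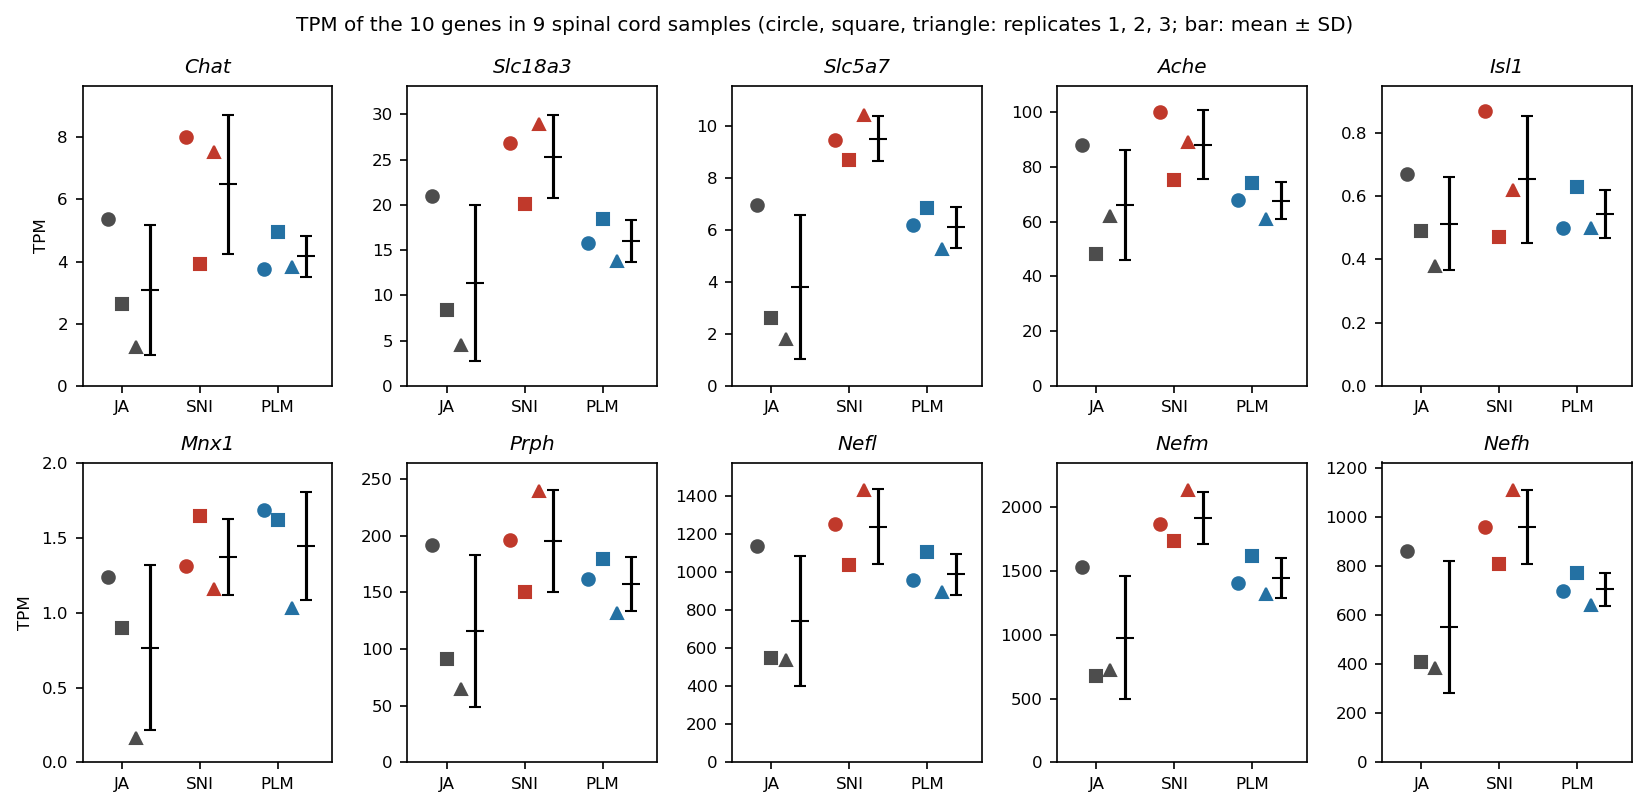
TPM of each member (vertical axis, linear, one scale per panel) in the 9 samples, with circles, squares and triangles for replicates 1, 2 and 3 and black bars for the mean ± SD of 3 samples. JA replicate 1 lies among the SNI and PLM samples in most panels, while JA replicates 2 and 3 lie below them in 8 of the 10 panels.

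The genes of acetylcholine supply differed widely among the samples. Chat, which makes the transmitter, stood at 5.36, 2.63 and 1.25 TPM in JA replicates 1, 2 and 3, at 8.01, 3.93 and 7.53 TPM in the SNI group and at 3.76, 4.94 and 3.82 TPM in the PLM group. The SNI and PLM ranges of Chat overlapped, and JA replicate 1 was above every PLM sample. Slc18a3, the transporter that loads acetylcholine into vesicles, stood at 21.0, 8.40 and 4.56 TPM in the JA group, at 26.9, 20.1 and 28.9 TPM in the SNI group and at 15.8, 18.4 and 13.8 TPM in the PLM group. Its lowest SNI sample was above its highest PLM sample but below JA replicate 1. Slc5a7, the high-affinity choline transporter of cholinergic terminals, stood at 6.96, 2.63 and 1.79 TPM in the JA group, at 9.46, 8.69 and 10.4 TPM in the SNI group and at 6.19, 6.84 and 5.28 TPM in the PLM group. For Slc5a7 the SNI samples stood above all 6 others.

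Ache encodes acetylcholinesterase, which ends the signal and is also made outside cholinergic neurons. Its level was 87.8, 48.2 and 62.2 TPM in the JA group, 100, 75.1 and 89.1 TPM in the SNI group and 67.7, 74.2 and 60.9 TPM in the PLM group. It differed from the other cholinergic genes in that JA replicate 3 was above 1 PLM sample, and its highest level was 2.08 times its lowest, the narrowest range of the 10 members. The corresponding ratio was 5.83 for Slc5a7, 6.34 for Slc18a3 and 6.41 for Chat.

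Both transcription factors were near the lower end of what the table can resolve. Mnx1, which specifies motor neurons in the embryo, was at 1.24, 0.90 and 0.16 TPM in the JA group, at 1.31, 1.65 and 1.16 TPM in the SNI group and at 1.69, 1.62 and 1.03 TPM in the PLM group. Isl1, which marks motor neurons and some dorsal interneurons, was at 0.67, 0.49 and 0.38 TPM in the JA group, at 0.87, 0.47 and 0.62 TPM in the SNI group and at 0.50, 0.63 and 0.50 TPM in the PLM group. The 3 groups overlapped for Isl1, whose mean stayed under 1 TPM in each, so that it did not enter the tests on all loci. Mnx1 had the widest range of the members, 10.6 times from lowest to highest, and that range rests on the single value of JA replicate 3.

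The filament genes were the most abundant members on the length-scaled TPM measure. Nefl, the light chain on which the filament is assembled, stood at 1138, 549.9 and 539 TPM in the JA group, at 1249.6, 1037 and 1428 TPM in the SNI group and at 961, 1107 and 896 TPM in the PLM group. Nefm, the medium chain, stood at 1534, 674 and 725 TPM in the JA group, at 1864, 1736 and 2134 TPM in the SNI group and at 1405, 1614 and 1316 TPM in the PLM group. Nefm was thus higher in each SNI sample than in any JA or PLM sample.

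Nefh, the heavy chain with the long phosphorylated tail, stood at 861, 407 and 384 TPM in the JA group, at 957, 809 and 1109.9 TPM in the SNI group and at 699, 773 and 641 TPM in the PLM group. Prph, or peripherin, stood at 192, 91.5 and 64.8 TPM in the JA group, at 196, 149.9 and 239 TPM in the SNI group and at 162, 179 and 132 TPM in the PLM group. The SNI and PLM ranges were apart for Nefh and overlapped for Prph. JA replicate 1 exceeded all PLM samples for Nefh and Prph.

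Group means followed the order SNI, PLM, JA in 9 of the 10 members, and Mnx1 had PLM first. The mean of Slc5a7 was 9.53 ± 0.87 TPM in the SNI group, 6.10 ± 0.78 TPM in the PLM group and 3.79 ± 2.77 TPM in the JA group (SD, n = 3). The mean of Nefm was 1912 ± 203 TPM, 1445 ± 153 TPM and 977 ± 482 TPM in the same order (SD, n = 3). For Slc5a7, Slc18a3, Nefm, Nefh and Ache the neighbours SNI and PLM did not overlap, while PLM and JA overlapped for all 10 members. The coefficient of variation of the members had a median of 53.6% in the JA group (28.5% to 76.0%), 17.0% in the SNI group (9.15% to 34.4%) and 13.3% in the PLM group (9.37% to 25.1%). Over all loci that averaged 1 TPM or more in the group, its median was 14.6%, 10.8% and 9.46%. The median of the members was above that of all loci in each group, and the lowest members were below it in the SNI and PLM groups.

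To see whether the whole neuronal content or its ventral part differed, the members were set beside lists of genes of other cells. The dorsal horn list of 17 loci, with peptides such as Tac1 (substance P), Penk (enkephalin) and Sst (somatostatin) and the factors Lbx1 and Pax2, ranged from 4.39 to 4.73 in mean log2(TPM + 1). The median locus of that list had 1.56 times more TPM in its highest than in its lowest sample, against 3.43 times for the members and 1.60 times over the 14936 loci that averaged 1 TPM or more and were above 0 in each sample. None of its loci had JA replicates 2 and 3 both below the other 7 samples after centring, and 1 of 17, Calb2 (the calcium-binding protein calretinin), did as deposited.

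The mean log2 level of the 9 members above 1 TPM, less that of the dorsal horn list, largely cancels the scaling of a library. It was 1.54, 0.82 and 0.42 in JA replicates 1, 2 and 3, with a mean of 0.93 ± 0.57 (SD, n = 3). It was 1.70, 1.76 and 1.91 in the SNI group, with a mean of 1.79 ± 0.11 (SD, n = 3), and 1.35, 1.53 and 1.36 in the PLM group, with a mean of 1.41 ± 0.10 (SD, n = 3). The SNI samples were above the 6 others, JA replicate 1 was above the PLM samples, and JA replicates 2 and 3 were below all. The dorsal horn list itself averaged 4.58 in the SNI and 4.57 in the PLM group as deposited, and 4.45 and 4.70 after centring. How far each side of the score differed between SNI and PLM thus depended on the scaling. No test was made of this score, because its members were known from earlier results.

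**Figure D2:**
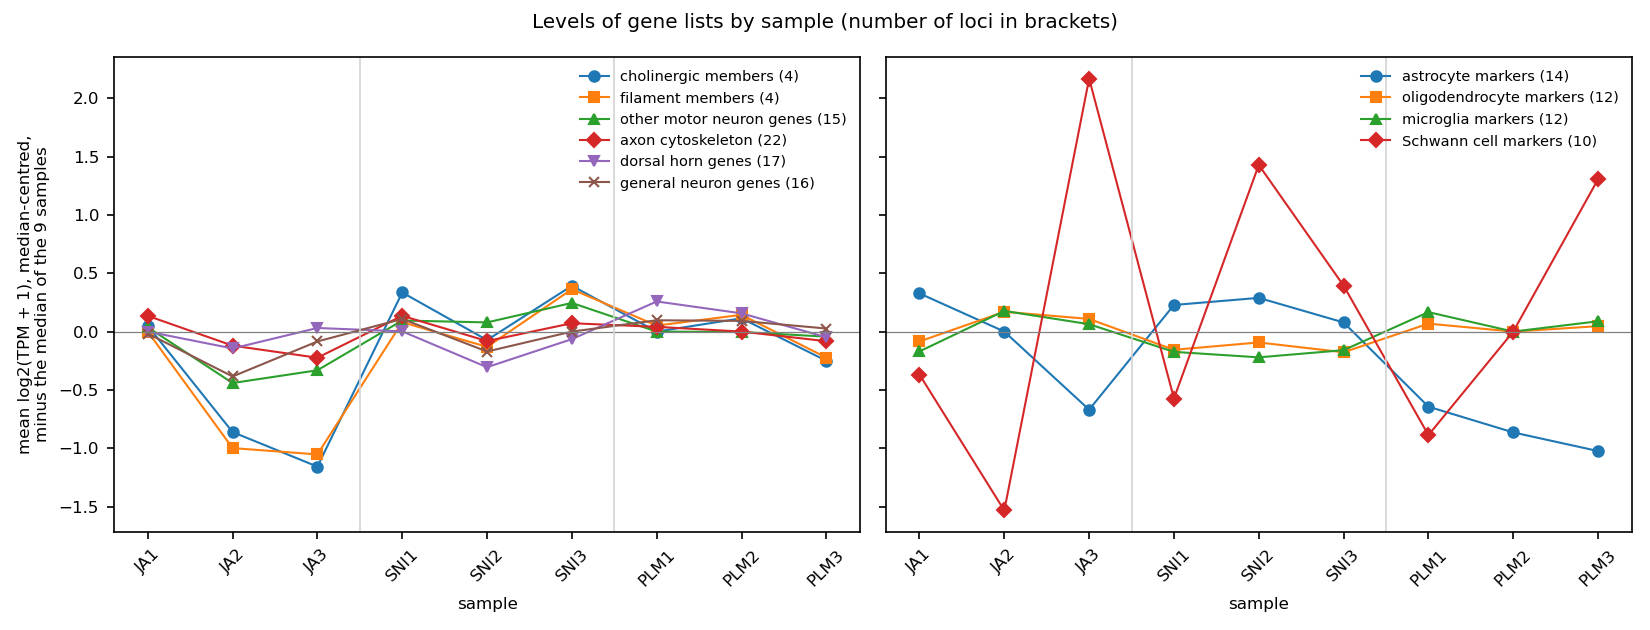
Mean median-centred log2(TPM + 1) of each gene list in the 9 samples, less the median of the 9 samples for that list (vertical axis, log2 units), with neuronal lists on the left and glial lists on the right and the number of loci in brackets. Cholinergic and filament members drop together in JA replicates 2 and 3, while the dorsal horn list stays near 0 and the Schwann cell list moves in opposite directions in those 2 samples.

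The other motor neuron genes were partly arranged like the members. Of 15 such loci above 1 TPM, 6 had JA replicates 2 and 3 below the 7 others after centring, which were Isl2, Chodl, Calca, Esrrb, Ret and Stk32a. Chodl (chondrolectin, a marker of fast motor neurons) was at 40.0, 17.3 and 12.7 TPM in the JA group, 52.0, 41.0 and 50.9 TPM in the SNI group and 36.4, 36.1 and 29.8 TPM in the PLM group. Calca, the gene of calcitonin and its related peptide CGRP, was at 90.0, 26.0 and 14.3 TPM in the JA group, 87.1, 47.2 and 81.2 TPM in the SNI group and 63.0, 41.0 and 30.4 TPM in the PLM group. Ret, a receptor for glial cell line-derived factors, was at 12.3, 6.28 and 5.52 TPM in the JA group. Spp1 (osteopontin) did not share the pattern, with 188, 71.4 and 197 TPM in the JA group, so that JA replicate 3 was above JA replicate 1. Of 11 acetylcholine receptor and partner genes, 2 did (Chrna4 and Chrna7, nicotinic receptor subunits), and of 22 axon cytoskeleton genes 6 did.

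General neuron genes had the pattern in 8 of 16 loci as deposited and in 2 of 16 after centring. No locus of the ventral interneuron list (6), nor of the Schwann cell (10), astrocyte (14), oligodendrocyte (12), microglia (12) or skeletal muscle (6) lists had it after centring. The Schwann cell list was lowest in JA replicate 2 (3.17 in mean log2(TPM + 1)) and highest in JA replicate 3 (6.80), between 4.29 and 6.26 in the SNI group and between 3.63 and 5.94 in the PLM group. Defining markers of sensory ganglion neurons were at or near 0 TPM in every sample, with Mrgprd at 0 and Scn10a at no more than 0.07. Calcb, also on that list, was lowest in JA replicates 2 and 3, with its values given below. The astrocyte list stood at 6.87, 6.45 and 5.71 in the JA group, 6.63 to 6.86 in the SNI group and 5.36 to 5.62 in the PLM group. The part of glial, Schwann cell or sensory neuron content in the levels of the members was not tested.

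The members also moved together over the samples. Over the 9 samples and after centring, 30 of the 45 pairs of members passed an adjusted p of 0.05 in an exact two-sided permutation test of Pearson's r. The 28 pairs among the 4 cholinergic and 4 filament genes had r from 0.73 to 0.99 with a median of 0.94, and all 28 passed, with Spearman's rho between 0.68 and 0.98. Nefl and Nefh had the highest r, 0.993 (adjusted permutation p = 0.000921). After the group means were removed, the median r of these 28 pairs was 0.92. The 17 pairs with Isl1 or Mnx1 had a median r of 0.53, and 2 of them passed.

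Because JA replicates 2 and 3 stand apart from the 7 other samples, the pooled coefficients also take in that gap. Without them the 28 pairs still had r from 0.55 to 0.97 with a median of 0.83, and 21 of the 28 had an unadjusted permutation p under 0.05 over 7 samples. After adjustment 2 of the 45 pairs passed over these 7 samples. No other pair of samples was left out of all correlations, so the effect of fewer samples and that of these 2 samples were not told apart. The median r of the pairs with Isl1 or Mnx1 then was 0.03. Without the 2 samples farthest from the median on the x axis, which were again JA replicates 2 and 3 in 24 of the 28 pairs, the 28 pairs had r from 0.60 to 0.97 and those with Isl1 or Mnx1 from -0.40 to 0.82. All members of a sample share its library, so the pairs are not independent of each other.

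**Figure D3:**
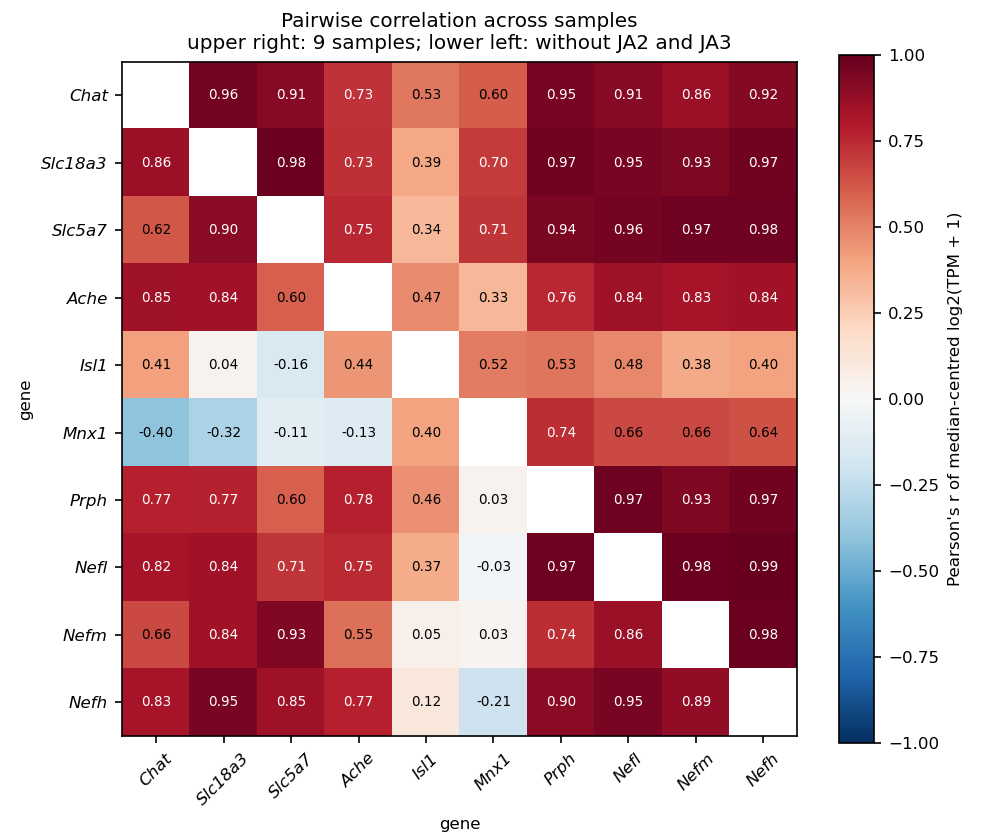
Pearson's r of median-centred log2(TPM + 1) for each pair of members, with all 9 samples above the diagonal and the 7 samples without JA replicates 2 and 3 below it (colour scale from -1 to 1). The cholinergic and filament genes form 1 block of high r above and below the diagonal, while the r of Mnx1 with these genes runs from 0.33 to 0.74 above it and from -0.40 to 0.03 below it, and that of Isl1 runs from 0.34 to 0.53 above it and from -0.16 to 0.46 below it.

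Loci outside the members were ranked by r with the mean standardised level of the 5 members Chat, Slc18a3, Slc5a7, Mnx1 and Prph. Among 9804 loci that averaged 5 TPM or more, the 8 with a gene symbol and the highest r over the 9 samples were Calcb, Chodl, Slc10a4, Lcp1, Hspb1, Ywhag, AC141959.1 and Dffa, with r from 0.951 to 0.984. The 99th percentile of r over these loci was 0.865, and without JA replicates 2 and 3 the 8 loci had r from 0.74 to 0.90. Calcb, the gene of the second CGRP peptide, was at 10.4, 3.84 and 2.38 TPM in the JA group, 14.2, 13.1 and 16.0 TPM in the SNI group and 11.2, 11.9 and 7.77 TPM in the PLM group. Slc10a4, a protein of synaptic vesicles, was at 24.2, 7.21 and 4.16 TPM in the JA group, 25.0, 19.8 and 30.3 TPM in the SNI group and 16.7, 21.4 and 16.2 TPM in the PLM group. Hspb1, a small heat shock protein, had 131, 86.8 and 59.1 TPM in the JA group. All 3 had JA replicates 2 and 3 below every other sample, which the choice by likeness to the score favours.

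The comparison of the SNI group with the JA group asks how the injury changed the cord. All 9 members tested had a higher mean log2 level in the SNI group, with a median log2 fold change of 0.89 against 0.12 over the 15557 loci tested, and none passed limma at an adjusted p of 0.05 (0% of all loci passed in this direction). Slc18a3 had the largest log2 fold change, 1.31 (SE 0.47), followed by Slc5a7 at 1.28 (SE 0.37), Nefm at 1.07 (SE 0.31), Chat at 0.96 (SE 0.41), Nefh at 0.89 (SE 0.31), Prph at 0.87 (SE 0.39) and Nefl at 0.82 (SE 0.30). Mnx1 was at 0.47 (SE 0.28) and Ache at 0.44 (SE 0.22). Each had an adjusted p of 0.614 by limma. At an unadjusted p under 0.05, 5 of the 9 were higher (Slc18a3, Slc5a7, Nefl, Nefm and Nefh), as were 6.11% of all loci. With an absolute log2 fold change above 1 as well, which is the threshold of the study, 3 of 9 were higher (Slc18a3, Slc5a7 and Nefm), against 0.495% of all loci. The groups did not overlap for 2 of 9, Slc5a7 and Nefm, against 12.1% of all loci.

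After centring, the median log2 fold change of the members was 0.77 and that of all loci -0.01. None of the 9 passed the adjusted threshold (0% of all loci), 5 of 9 had an unadjusted p under 0.05 (1.7% of all loci), 2 of 9 also exceeded a log2 fold change of 1 (Slc18a3 at 1.19 and Slc5a7 at 1.16, 0.244% of all loci), and 2 of 9 did not overlap (4% of all loci). Since JA replicates 2 and 3 were singled out for the low levels of the members, leaving them out had to make the differences smaller. With JA replicate 1 alone against the 3 SNI samples, the log2 fold change as deposited was 0.24 for Slc18a3, 0.40 for Slc5a7, 0.31 for Nefm, 0.19 for Chat, 0.14 for Nefh, 0.11 for Nefl and 0.08 for Mnx1, and it was -0.0017 for Prph and -0.0056 for Ache. All 3 SNI samples were above JA replicate 1 for Slc5a7 and Nefm. This fit takes the lone JA sample to vary like the SNI samples. Leaving out JA replicate 1 instead had to make the differences larger, because JA replicates 2 and 3 then stood alone for the JA group. In that fit Nefm passed limma with a log2 fold change of 1.44 (adjusted p = 0.0499).

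**Figure D4:**
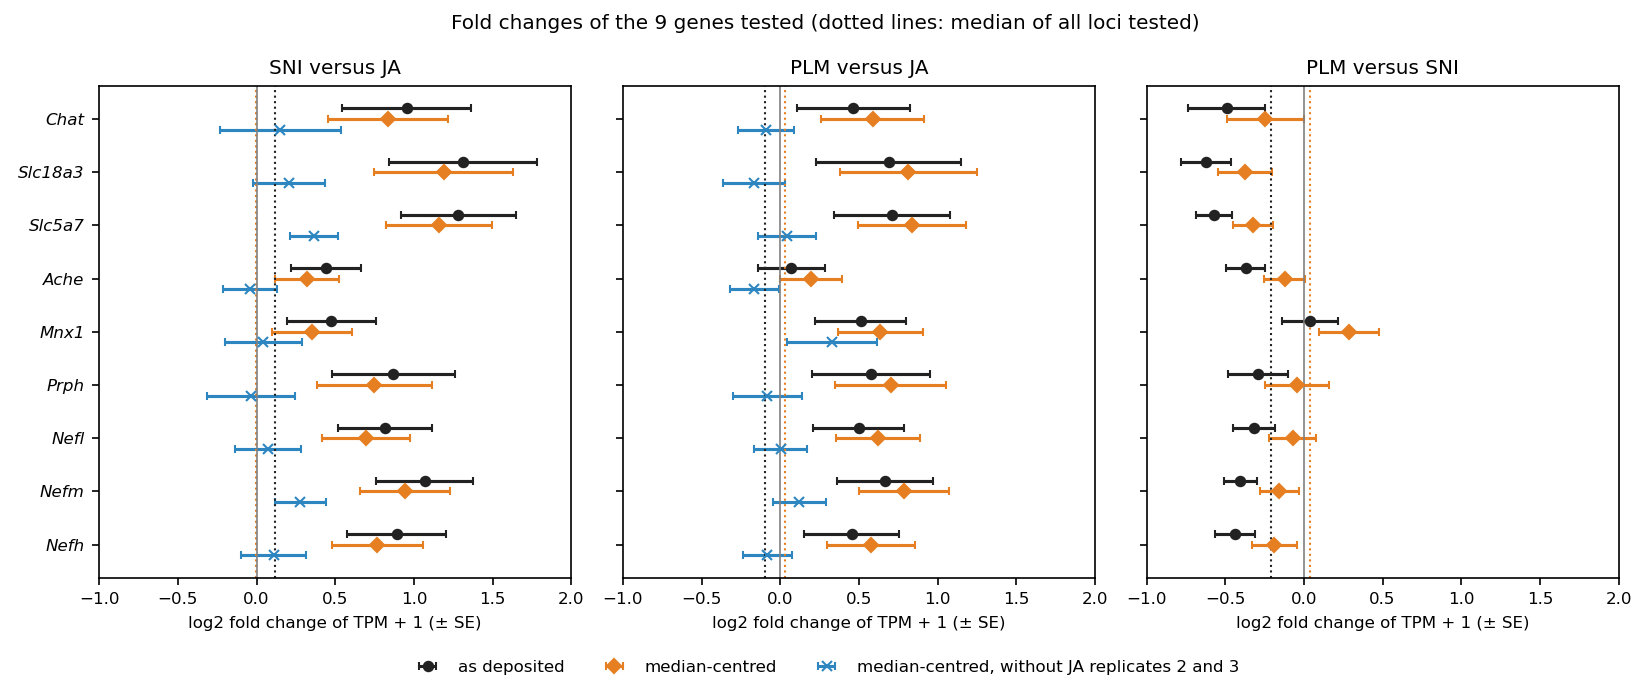
Log2 fold change of TPM + 1 with its SE (horizontal axis) of the 9 members tested in the 3 comparisons, as deposited (black circles), median-centred (orange diamonds) and, for comparisons with the JA group, median-centred without JA replicates 2 and 3 (blue crosses), with dotted lines at the median of all loci. The blue crosses of the comparisons with JA run from -0.17 to 0.37.

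The comparison of the PLM group with the SNI group asks what the drug combination changed in injured rats, and it does not involve the JA samples. As deposited, 1 of the 9 members tested, Slc5a7, fell in the PLM group, with a log2 fold change of -0.57 (SE 0.11, adjusted p = 0.0303 by limma). No member rose. Of the 15474 loci tested, 13.6% were called lower and 0.246% higher, so a count of 1 in 9 is near that of the table. At an unadjusted p under 0.05, 5 of 9 were lower (35.8% of all loci), and 5 of 9 did not overlap (41.9% of all loci), namely Slc18a3, Slc5a7, Ache, Nefm and Nefh. None met the threshold of the study with a log2 fold change under -1, which 1.42% of all loci did. The median log2 fold change was -0.40 for the members and -0.21 for all loci. Slc18a3 was at -0.62 (SE 0.16, adjusted p = 0.0502 by limma), Nefm at -0.40 (SE 0.11, adjusted p = 0.0527 by limma) and Nefh at -0.44 (SE 0.13, adjusted p = 0.0659 by limma). Mnx1 was at 0.04 (SE 0.18, adjusted p = 0.888 by limma). The call of Slc5a7 depended on single samples, since no member was called when any 1 PLM sample or SNI replicate 1 or 3 was left out, with an adjusted p of Slc5a7 up to 0.101 by limma, and 5 of 9 were called without SNI replicate 2 (Chat, Slc18a3, Slc5a7, Ache and Nefh), a fit that called 9.70% of all loci in either direction.

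Centring each library on its median took away much of this. None of the 9 members was then called lower, while 0.685% of all loci were, and 1 of 9 had an unadjusted p under 0.05 (6.89% of all loci). Slc5a7 stood at -0.32 (SE 0.12, adjusted p = 0.268 by limma) and was the 1 member of 9 without overlap between the groups (9.73% of all loci). The median was -0.16 for the members and 0.04 for all loci, with Prph at -0.05, Nefl at -0.07 and Mnx1 at 0.29. The dorsal horn list had no locus called lower in either form, with a median of -0.01 as deposited and 0.24 centred. Of the other motor neuron genes, 5 of 15 fell as deposited, with Ret at -0.74 (SE 0.12, adjusted p = 0.0206 by limma), Stk32a at -0.64 (SE 0.11, adjusted p = 0.0214 by limma) and Spp1 at -0.41 (SE 0.10, adjusted p = 0.0433 by limma), and none of 15 was called after centring. Of 22 axon cytoskeleton genes, 6 fell as deposited, among them Dync1h1 (the heavy chain of dynein), Ank2 (an ankyrin) and Tubb2b (a tubulin), and none of 22 was called after centring. Of 15 genes of the response to axotomy, 2 fell as deposited (Tubb6, a tubulin, and Csf1, a growth factor that injured neurons release) and none after centring.

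Of the 16 general neuron genes and 11 cholinergic partner genes, none was called in this comparison. The astrocyte list moved far more, with 13 of 14 loci lower as deposited and 10 of 14 after centring. Gfap, the filament of astrocytes, was at -1.28 (SE 0.08, adjusted p = 0.00396 by limma) as deposited. Among the lists of other cells, 1 of 12 microglia genes (Tmem119) and 1 of 6 skeletal muscle genes (Tnnc2) fell as deposited and none after centring. All 6 skeletal muscle loci had a lower mean in the PLM group, with a median log2 fold change of -1.07 as deposited and -0.82 centred. The mean log2(TPM + 1) of that list was 4.72 in SNI replicate 1 and between 2.05 and 2.87 in the 8 other samples. All 10 Schwann cell loci had a lower mean as deposited (median -0.62) and 8 of 10 did centred (median -0.37), with none of them at an unadjusted p under 0.05 in limma. The part of the astrocyte, muscle and Schwann cell differences in the TPM of the members was not tested.

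The PLM group and the JA group differ by both the injury and the drug. All 9 members tested had a higher mean in the PLM group, with log2 fold changes from 0.07 for Ache to 0.71 for Slc5a7 and a median of 0.51 against -0.10 over 15349 loci. None passed limma (adjusted p from 0.463 to 0.912), while 0.00652% of all loci were called higher. None had an unadjusted p under 0.05 (1.3% of all loci) and none was free of overlap (2% of all loci). After centring none was called (0% of all loci), 2 of 9 had an unadjusted p under 0.05 (Slc5a7 at 0.84 and Nefm at 0.79, 5.26% of all loci), and Mnx1 alone, 1 of 9, did not overlap (9.51% of all loci). Without JA replicates 2 and 3, 8 of the 9 had a lower mean in the PLM group as deposited, from -0.09 for Nefm to -0.38 for Ache and Slc18a3, and Mnx1 was at 0.12. After centring, 5 of the 9 were lower without those 2 samples (Chat, Slc18a3, Ache, Prph and Nefh). The comparisons with the JA group share its 3 samples, so their likeness is no separate evidence.

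Ratios between genes of 1 sample do not depend on how the library was scaled. The ratio of Nefm to Nefl TPM was 1.35, 1.23 and 1.34 in the JA group, 1.49, 1.67 and 1.49 in the SNI group and 1.46, 1.46 and 1.47 in the PLM group. The 3 groups did not overlap, and JA replicate 1 lay with the other JA samples and not with the injured animals. The mean was 1.31 ± 0.07 in the JA group, 1.55 ± 0.10 in the SNI group and 1.46 ± 0.0053 in the PLM group (SD, n = 3). The exact two-sided permutation p was 0.10 for each pair of groups, which is the smallest that 3 against 3 samples allow, and 0.263 after adjustment over 21 tests of 7 ratios. No other of the 7 ratios separated all 3 groups. The ratios were chosen after values of these samples were seen, so the p-values are descriptive.

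The ratio of Nefh to Nefl was 0.757, 0.741 and 0.712 in the JA group, 0.766, 0.780 and 0.777 in the SNI group and 0.728, 0.698 and 0.715 in the PLM group. The SNI samples were above the 6 others, and JA and PLM overlapped. Prph to Nefl was between 0.145 and 0.169 in 8 samples and 0.120 in JA replicate 3. Slc18a3 to Chat lay between 3.19 and 5.12 with overlap of all groups, and Slc5a7 to Chat between 1.00 and 2.21. The ratio of Slc18a3 to Ache was 0.239, 0.174 and 0.0733 in the JA group and between 0.226 and 0.325 in the injured animals. Of these 7 ratios, with Nefl to Ina (internexin, a filament gene outside the members) as the last, none passed the exact permutation test after adjustment.

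**Figure D5:**
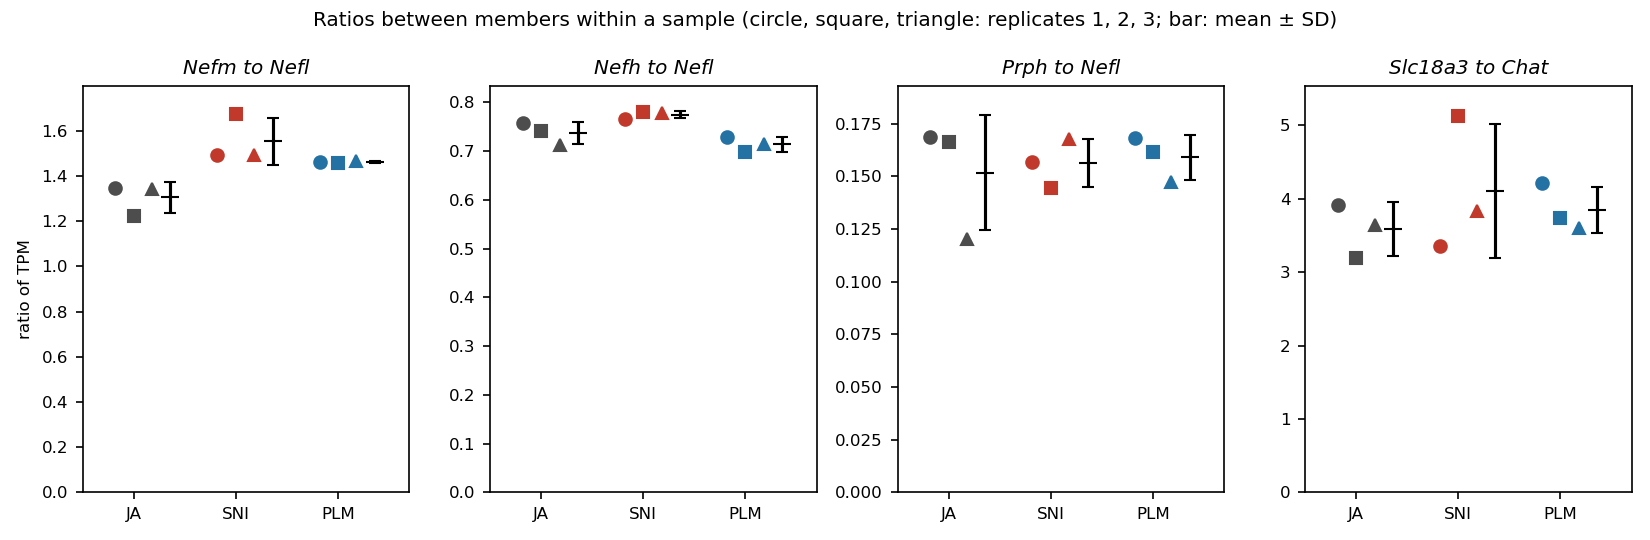
Ratio of TPM between pairs of members within each sample (vertical axes from 0), with circles, squares and triangles for replicates 1, 2 and 3 and black bars for the mean ± SD of 3 samples. The ratio of Nefm to Nefl runs from 1.23 to 1.35 in the JA group and from 1.46 to 1.67 in the injured groups.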

How the data were processed

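RNA of ipsilateral L3-L6 spinal cord tissue from 9 rats was sequenced, with 3 samples in each of the JA, SNI and PLM groups, which were taken from the sample labels. According to the study's methods, the authors trimmed reads, mapped them with HISAT2 and computed expression with StringTie. The processing notes name fastp 0.19.5 and a human build, GRCh38.p13, although the gene identifiers are those of rat. The deposited values are TPM, a length-scaled unit with the same total in every sample, so that the read depth is unknown. The unit was read from the column sums.

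Levels were analysed as log2(TPM + 1) with limma 3.58.1 in R 4.3.3, with a variance trend, for each pair of groups, over loci that averaged 1 TPM or more in the samples fitted, and p-values were adjusted by Benjamini-Hochberg over all loci tested. The added 1 makes the fold changes of genes with low TPM appear smaller. Median-centring subtracted from each library the median of its loci. Correlations used exact permutation over all pairings of the samples, and ratios used exact permutation of the samples. The named genes are the 10 members, up to 3 genes of each list per comparison with the smallest p among those at an adjusted p under 0.05, and the 8 loci most like the members. Other genes of the lists were named after their values were seen. The members and lists were chosen with earlier results of these data known. The choice of JA replicates 2 and 3 and the choice of ratios followed the values. The labels do not say whether the replicate numbers pair the samples, and the main fits did not use the numbers. The scripts were tested on simulated data.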

Additional observations from a re-analysis of the deposited data

How the results depend on the processing

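Over the alternatives tried, 395 values of the members' log2 fold changes kept their direction and side of the adjusted threshold, 10 newly passed it, 11 no longer did and 21 reversed in sign. As 1 call was made to begin with, staying on the uncalled side says little, and the 11 that no longer passed are those of Slc5a7 in the PLM against the SNI group. The count of members lower in the PLM than in the SNI group, 1 as reported, was 0 after median-centring, quantile normalization, rescaling without the 13 mitochondrial genes, no filter, a fit to all 9 samples and the replicate block, 3 with a pseudocount of 0.1 (14.3% of all loci called in either direction), 4 with at least 1 TPM in every sample (19.0%) and 1 without the variance trend (9.40%). It ran from 0 to 5 when 1 sample was left out, with 5 without SNI replicate 2 and 0 without any other. With the replicate block, 152 loci were called in that comparison against 2148. Same-numbered samples of different groups correlated between -0.05 and 0.13, and different-numbered ones between -0.19 and 0.14. The block raised the SE of every member tested in the PLM against the SNI group. In both comparisons with the JA group it lowered the SE of every member tested. Whether the numbers pair the samples is therefore not settled. The adjusted p of Slc5a7 there ran from 0.0238 to 0.283 over the alternatives. The count higher in the SNI than in the JA group ran from 0 to 1 when 1 sample was left out, with 1 (Nefm) without JA replicate 1. That fit keeps only JA replicates 2 and 3 in the JA group, which had to make the difference larger.

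Signs reversed for Mnx1 in the PLM against the SNI group without PLM replicate 1 (-0.036), PLM replicate 2 (-0.017) or SNI replicate 3 (-0.027), where leaving out 1 sample gave -0.036 to 0.167, and for Ache in the PLM against the JA group without JA replicate 2, where it gave -0.131 to 0.295. The others arose without JA replicates 2 and 3, an alternative chosen after seeing the data. In the SNI against the JA group these were Ache (-0.0056 as deposited, -0.041 centred) and Prph (-0.0017, -0.037). In the PLM against the JA group they were Chat (-0.31, -0.093), Slc18a3 (-0.38, -0.17), Ache (-0.38, -0.16), Prph (-0.29, -0.081) and Nefh (-0.29, -0.081), and, as deposited alone, Slc5a7 (-0.17), Nefl (-0.21) and Nefm (-0.091). Pairs of members passing the adjusted permutation test numbered 24 to 30 when 1 sample was left out, and 2 without JA replicates 2 and 3, which leaves 7 samples. The causes were not tested. With 3 samples in a group and unknown read depth, small differences and the levels of Isl1 and Mnx1 are the least certain.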
